A study of Mus musculus with 6 samples.

Results

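The PYHIN proteins join a pyrin domain, which binds other pyrin domains, to HIN domains, which bind DNA. In the mouse their genes lie side by side on chromosome 1, as Aim2 and the Ifi200 genes. Aim2 senses double-stranded DNA in the cytosol and assembles an inflammasome through the adaptor ASC, p204 (Ifi204) signals from DNA to STING, and other members act in the nucleus on transcription and growth; many of the genes are known to be induced by interferons, and macrophages and monocytes are among the cells that express them most. Described here are 9 genes of the family, Aim2, Mndal, Ifi203, Ifi204, Ifi205, Ifi207, Ifi209, Ifi211 and Ifi213, out of 21780 genes in the count table. They were taken by symbol through their Ensembl identifiers and were chosen by their measured difference between WGP and PBS, so their values in that comparison are a description without a test.

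The libraries came from CD45+CD11b+ cells, sorted by flow cytometry as myeloid cells from the pancreas of wild-type C57BL/6J mice. WGP stands for whole glucan particles, a particulate β-glucan from yeast. Mice of the PBS group (3 libraries) were injected into the peritoneum with PBS and those of the WGP group (3 libraries) with WGP at a dose of 1 mg, 7 days before the pancreas was collected. Per the methods, mice were 6 to 8 weeks old and of both sexes, and the sex behind a library is not stated. The study describes its samples as separate animals from 1 experiment, while the sample labels give replicate numbers without animals. The comparison asks how the pancreatic myeloid cells differ after WGP. The PBS libraries held 35334645, 38419377 and 40580936 counts and the WGP libraries 38240913, 43341834 and 41990018 counts. Levels are given as CPM scaled by TMM factors, where CPM is the count of a gene per 1000000 counts of its library. A gene was called where its adjusted p in edgeR's quasi-likelihood test did not exceed 0.05 and its log2 fold change was 1 or more in size.

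All 8 markers of the sort were present in every library. Ptprc, which encodes CD45, was at 949 to 1043 CPM in the PBS libraries and at 1536 to 1747 CPM in the WGP libraries. Itgam, which encodes CD11b, was at 189 to 254 CPM in the PBS libraries and at 379 to 418 CPM in the WGP libraries. Lyz2 was the most abundant of the 8 markers of the sort, with 7069 ± 1852 CPM (SD, n = 3) in PBS and 16341 ± 627 CPM (SD, n = 3) in WGP. Of the 8, Lyz2 was called higher (log2 fold change 1.21) and the others were not called, namely Itgam (0.79), Ptprc (0.71), Fcer1g (0.59), Tyrobp (0.53), Cd68 (-0.02), Csf1r (-0.31) and Adgre1 (-0.43), the last 3 with overlapping groups.

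Some libraries stood apart. Counts of 4 Y-linked genes summed to 8972 in PBS replicate 2 and to 10063 in PBS replicate 3, and to 0 in PBS replicate 1 and 0, 0 and 1 in the WGP libraries. PBS replicate 1 was therefore the only PBS library without Y-linked counts. It also had the highest summed level of 8 B cell markers, at 2542 CPM beside 664 and 389 CPM in the other PBS libraries and 159, 182 and 90 CPM in the WGP libraries, with Cd79a the most abundant. Markers of resident macrophages also moved with the groups: 10 of 11 were called lower in WGP and 0 higher, with summed levels of 9324, 15998 and 19390 CPM in PBS and 3210, 5285 and 4589 CPM in WGP, and with C1qa the most abundant and C1qb the marker not called. Of 8 markers of Ly6C-high monocytes, 5 were called higher and 1, F13a1, the most abundant, was called lower, and the summed levels were 2671, 3687 and 4232 CPM in PBS and 4427, 3865 and 4439 CPM in WGP. Neutrophil markers, led by S100a9, were also highest in PBS replicate 1, at 3850 CPM beside 1963 and 1219 CPM in PBS and 2009, 1886 and 1997 CPM in WGP, with 1 of 8, Cxcr2, called higher and 2, Mpo and Elane, lower. Elane lost its call without PBS replicate 1 (edgeR adjusted p = 0.297, within a range of 0.000711 to 0.297 over the alternatives), WGP replicate 1 (-3.32) or WGP replicate 3 (-3.23), and S100a9, at -0.77, gained a call without PBS replicate 3 (-1.13). Of the 8 B cell markers 7 were called lower, all but Fcer2a, which was called without WGP replicate 2 (-3.79), while Cr2 lost its call without PBS replicate 1 (-2.70). The 8 acinar markers, which the gate on CD45 would remove, were led by Pnlip and summed to 1670, 3948 and 1063 CPM in PBS and to 273, 421 and 255 CPM in WGP, and 7 of the 7 tested were called lower.

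Of 5 markers of plasmacytoid dendritic cells, Siglech (-4.00) and Tcf4 (-2.00), the most abundant, were called lower, and the list summed to 289, 286 and 309 CPM in PBS and to 80.8, 72.6 and 63.8 CPM in WGP. Of 8 NK cell markers, Klrk1 (1.44) was called higher and Gzma (-1.81), the most abundant, lower, with sums of 255, 141 and 62.5 CPM in PBS and 104, 110 and 95.5 CPM in WGP. Gzma lost its call without PBS replicate 2 (-1.86), WGP replicate 1 (-1.74) or WGP replicate 3 (-1.81), and Nkg7, at -1.55, gained a call without PBS replicate 3 (-2.02). Of 8 markers of conventional dendritic cells, Cd209a (-1.35), the most abundant, was called lower and Clec9a, at 1.28, was called without WGP replicate 2 (1.49), with sums of 337, 291 and 292 CPM in PBS and 267, 145 and 255 CPM in WGP. Of 8 eosinophil markers, Ear2 (-1.23), the most abundant, was called lower, a call lost without PBS replicate 2 (-1.19), PBS replicate 3 (-0.91), WGP replicate 2 (-0.99) or WGP replicate 3 (-1.20). Ccr3, at 1.83, was called without WGP replicate 3 (2.20) and Il5ra, at -2.01, without PBS replicate 3 (-2.49), and the eosinophil markers summed to 110, 75.8 and 73.8 CPM in PBS and to 88.3, 34 and 34.6 CPM in WGP. The 8 T cell markers, led by Cd4, summed to 24.2, 28.5 and 34.7 CPM in PBS and to 13.2, 51.3 and 20.3 CPM in WGP, and Cd8a, called higher and at 0 in PBS, kept its call only when PBS replicate 1 was the library left out. Cd3d was called without PBS replicate 3. With the replicate block Elane (-2.38), Ear2 (-1.22) and Cd8a lost their calls and Cd4 (-1.19) and Il5ra (-1.58) gained a call. By DESeq2, Fcer2a (-2.52), Cd3e (3.90), Clec9a (1.27), Ccr3 (1.82) and Il5ra (-2.02) were called, and with the filter filterByExpr Elane (-3.47) and Ear2 (-1.23) lost their calls. None of the genes in these lists was at 0 in all libraries. In bulk RNA, fewer cells of a type and less RNA per cell cannot be told apart, and the part of these markers in the results on the PYHIN genes was not tested.

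All 9 PYHIN genes passed the filter on low counts, and the lowest count of any of them in any library was 406, for Ifi205 in PBS replicate 3. Of all 14429 genes tested, 1369 (9.49%) were called, 653 (4.53%) higher and 716 (4.96%) lower in WGP. Of the 9 genes, 4 were called higher, Ifi205, Ifi209, Ifi211 and Ifi213, and 1 was called lower, Ifi207. The other 4, Aim2, Mndal, Ifi203 and Ifi204, were not called. The same 5 genes were called under RLE, upper-quartile and library-total scaling. By adjusted p alone, 5 were higher, Ifi204 joining the others, where 7.54% of all genes tested were, and 1 was lower, where 6.81% were. The WGP libraries lay above all PBS libraries for 5 of the 9, the 4 called higher and Ifi204, where 16% of all genes tested did so, and below all PBS libraries for Ifi207, where 16.1% did so. In either direction the groups did not overlap for 32% of all genes tested. The median log2 fold change was 0.93 over the 9 genes and -0.05 over all genes tested.

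**Figure D1:**
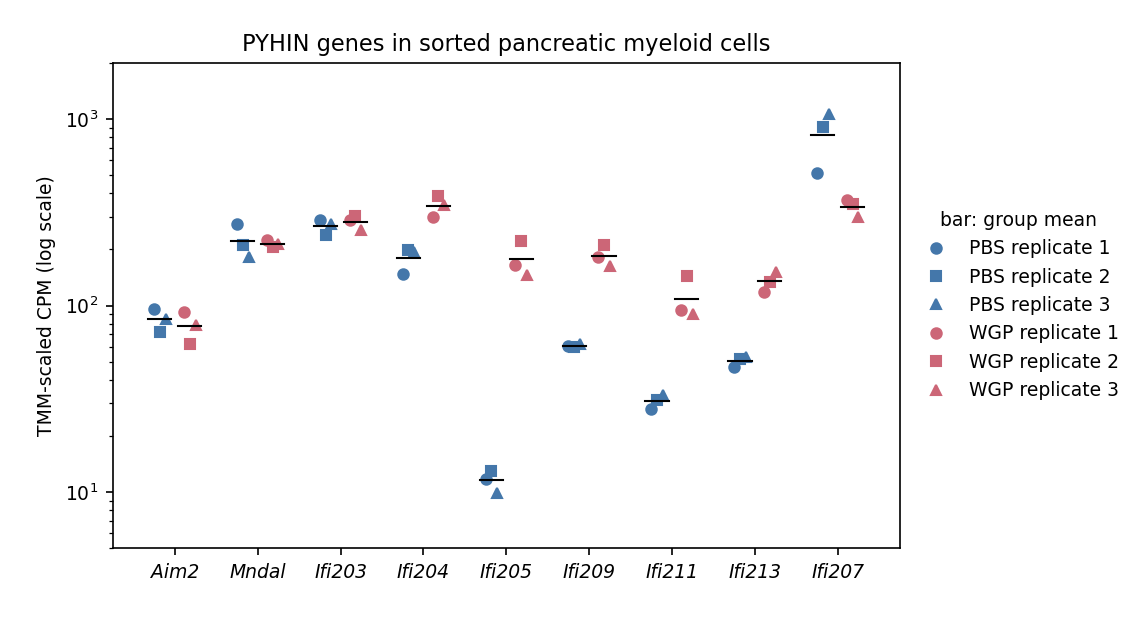
TMM-scaled CPM (log axis) of the 9 PYHIN genes in each library, PBS in blue and WGP in red, with a symbol shape for each replicate and a bar at each group's mean. Ifi205 lay between 9.92 and 13 CPM in the PBS libraries and between 145 and 221 CPM in the WGP libraries, and Ifi207 lay lower in every WGP library than in every PBS library.

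Aim2 (ENSMUSG00000037860), the inflammasome-forming DNA sensor, was at 96.3, 71.8 and 84.9 CPM in the PBS libraries and at 91.9, 62 and 78.7 CPM in the WGP libraries. The groups overlapped, with PBS replicate 1 the highest library and WGP replicate 2 the lowest. Its log2 fold change was -0.12 (SE 0.19), and it was 0.02 without WGP replicate 2.

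Ifi204 (ENSMUSG00000073489), the gene of the DNA sensor p204, was at 148, 198 and 194 CPM in the PBS libraries and at 299, 387 and 346 CPM in the WGP libraries. Every WGP library lay above every PBS library, and PBS replicate 1 was the lowest of the 6. The mean was 180 ± 27.6 CPM (SD, n = 3) in PBS and 344 ± 44.2 CPM (SD, n = 3) in WGP, a ratio of 1.91. Its log2 fold change of 0.93 (SE 0.17) lay just under the threshold of 1, and was 1.01 without PBS replicate 2 and 1.03 without WGP replicate 1, where it was called.

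Mndal (ENSMUSG00000090272), the mouse counterpart of the myeloid cell nuclear differentiation antigen, was at 273, 210 and 182 CPM in the PBS libraries and at 224, 205 and 213 CPM in the WGP libraries. The WGP libraries all lay inside the range of the PBS libraries, of which replicate 1 was the highest. Its log2 fold change was -0.05 (SE 0.17), and it was 0.12 without PBS replicate 1. Ifi203 (ENSMUSG00000039997) was at 286, 240 and 275 CPM in the PBS libraries and at 287, 304 and 254 CPM in the WGP libraries. These groups also overlapped, with a log2 fold change of 0.08 (SE 0.14), and the sign turned to -0.03 under library totals alone, a scaling that moves the median of all genes from -0.05 to -0.16.

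Ifi205 (ENSMUSG00000054203) showed the widest gap between the groups among the 9 genes. It was at 11.7, 13 and 9.92 CPM in the PBS libraries and at 166, 221 and 145 CPM in the WGP libraries. The PBS libraries were close to each other and all far below the WGP libraries, of which replicate 2 was the highest. The means were 11.6 ± 1.57 CPM and 177 ± 39.1 CPM (SD, n = 3 each), a ratio of 15.3, and the log2 fold change was 3.94 (SE 0.21), between 3.75 and 4.06 over all alternatives run.

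Ifi209 (ENSMUSG00000043263) was at 60.4, 60.2 and 61.9 CPM in the PBS libraries and at 182, 210 and 163 CPM in the WGP libraries. The PBS libraries were nearly equal, with an SD of 0.956 CPM, and every WGP library lay far above them. The ratio of means was 3.04 and the log2 fold change 1.60 (SE 0.15). Ifi211 (ENSMUSG00000026536) was at 28, 31 and 33.3 CPM in the PBS libraries and at 94.2, 144 and 90.4 CPM in the WGP libraries. Here WGP replicate 2 stood above the other WGP libraries, and no library of either group reached the range of the other. The ratio of means was 3.55 and the log2 fold change 1.83 (SE 0.21), or 1.59 without WGP replicate 2. Ifi213 (ENSMUSG00000073491) was at 46.6, 51.4 and 52.8 CPM in the PBS libraries and at 118, 134 and 152 CPM in the WGP libraries. All WGP libraries were higher, with a ratio of means of 2.68 and a log2 fold change of 1.42 (SE 0.16).

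Ifi207 (ENSMUSG00000073490) ran the other way. It was at 512, 903 and 1059 CPM in the PBS libraries and at 369, 351 and 297 CPM in the WGP libraries. All WGP libraries lay below all PBS libraries, and among the PBS libraries replicate 1, the library without Y-linked counts, was much closer to the WGP libraries than the other two were. The means were 825 ± 282 CPM in PBS and 339 ± 37.6 CPM in WGP (SD, n = 3 each), a ratio of 0.411, and the log2 fold change was -1.28 (SE 0.24). Over the libraries left out in turn it ran from -1.53 without PBS replicate 1 to -1.06 without PBS replicate 3. With a covariate for whether a library held Y-linked counts, which leaves PBS replicate 1 as the only PBS library to set against WGP and takes it to vary like the others, it was -0.60 (SE 0.18) and the call was lost. The same covariate gave 1.21 for Ifi204, which was then called, 3.92 for Ifi205, 1.62 for Ifi209, 1.96 for Ifi211, 1.53 for Ifi213, -0.02 for Ifi203, -0.31 for Aim2 and -0.35 for Mndal.

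Among the PBS libraries, replicate 1 was the lowest both for the summed resident macrophage markers, at 9324 CPM, and for Ifi207, at 512 CPM, and replicate 3 was the highest for both. Among the WGP libraries, replicate 1 was the lowest for the summed markers, at 3210 CPM, and the highest for Ifi207, at 369 CPM. With the Y-linked covariate, which rests on PBS replicate 1, the macrophage markers Maf (-0.89), C1qa (-0.82) and C1qc (-0.79) lost their calls, as Ifi207 did, and so did Cd209a (-0.84), Klrk1 (1.27), Cxcr2 (0.97), Ear2 (-0.39) and Cd8a of the other marker lists. Calls were gained for Itgam (1.06), Fcer2a (-3.58), Prf1 (-1.81), Nkg7 (-2.42), S100a8 (-1.45), S100a9 (-1.58), Retnlg (-1.61) and Il5ra (-3.15). The part of the macrophage markers in the level of Ifi207 was not tested.

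Levels of the genes were compared with each other as CPM per kilobase of exon (CPM per kb), since the exons of the 9 genes differ in length. In the PBS libraries Ifi207 was the highest, at 241 ± 82.3 CPM per kb (SD, n = 3). Mndal followed at 61.2 ± 12.8, Ifi204 at 50.6 ± 7.76, Ifi203 at 39.8 ± 3.59, Aim2 at 24.1 ± 3.5, Ifi211 at 17.2 ± 1.48, Ifi209 at 17.1 ± 0.27, Ifi213 at 7.35 ± 0.473 and Ifi205 at 2.77 ± 0.375 CPM per kb. Neighbours in this order overlapped over the PBS libraries for Mndal and Ifi204, for Ifi204 and Ifi203, and for Ifi211 and Ifi209, and the other neighbours did not.

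In the WGP libraries Ifi207 at 99.1 ± 11 and Ifi204 at 96.6 ± 12.4 CPM per kb overlapped at the top of the order. Ifi211 at 61.3 ± 16.6, Mndal at 59 ± 2.64, Ifi209 at 52.2 ± 6.74, Ifi205 at 42.4 ± 9.37 and Ifi203 at 42 ± 3.75 CPM per kb followed, each overlapping the next. Aim2 at 22.1 ± 4.29 and Ifi213 at 19.7 ± 2.51 CPM per kb were the lowest, overlapping each other and separate from Ifi203. Ifi205, the lowest of the 9 in PBS, thus lay within the middle of the order in WGP, and Ifi207 no longer stood apart from Ifi204.

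The summed level of the 9 genes was 379, 479 and 526 CPM per kb in the PBS libraries and 484, 543 and 456 CPM per kb in the WGP libraries. These sums overlapped, and the log2 ratio of the means was 0.10. What differed was the makeup of the sum. Ifi207 held 39.5%, 55.1% and 58.9% of it in the PBS libraries and 22.3%, 18.9% and 19% in the WGP libraries, and Ifi205 held 0.741%, 0.652% and 0.452% in PBS and 8.24%, 9.73% and 7.59% in WGP. Without Ifi207 the other 8 genes summed to 230, 215 and 216 CPM per kb in PBS and to 376, 440 and 370 CPM per kb in WGP, a log2 ratio of 0.84. Within a library, the ratio of Ifi204 to Ifi207 in CPM was 0.29, 0.219 and 0.183 in PBS and 0.809, 1.1 and 1.17 in WGP, so that every WGP library had a higher ratio than every PBS library.

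**Figure D2:**
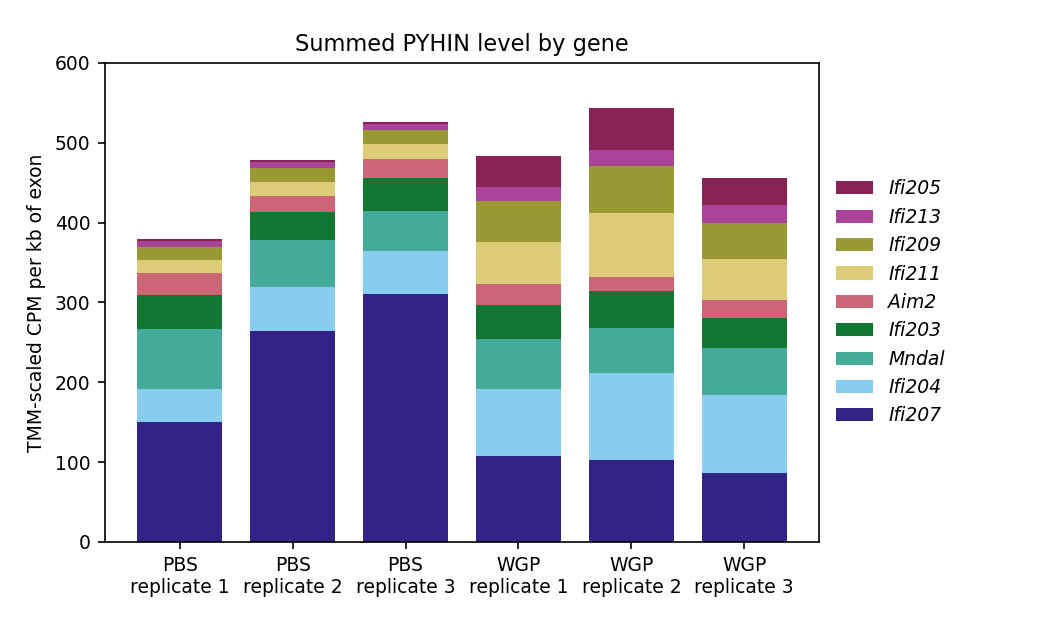
Stacked TMM-scaled CPM per kb of exon of the 9 PYHIN genes in each library, with a colour for each gene. The full height spans 379 to 526 for PBS and 456 to 543 for WGP, while Ifi207, at the foot of each bar, takes 39.5% to 58.9% in PBS and 18.9% to 22.3% in WGP.

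Near-identical copies limit how well these genes can be counted apart. Of the 75-base windows in the annotated transcripts, the share that occurs in no other gene was 100% for Aim2, 97.2% for Ifi207, 94.3% for Ifi203, 91.9% for Ifi213, 88.9% for Mndal, 86.8% for Ifi204, 83.4% for Ifi205, 76.9% for Ifi209 and 36.4% for Ifi211. Ifi211 shares 695 windows with Ifi205 and Ifi209 shares 817 with Ifi214, so the level of Ifi211 is the least certain of the 9. Per kilobase of unique windows, Ifi211 would be the highest of the 9 in WGP, at 176 ± 47.6 CPM, beside 114 ± 14.6 for Ifi204 and 103 ± 11.4 for Ifi207. On the same scale in PBS, Ifi207 was the highest at 250 ± 85.4 CPM and Ifi211 was at 49.4 ± 4.23 CPM (SD, n = 3). On that scale the log2 ratio of the summed level was 0.34. The span of Mndal overlaps those of Ifi203 and Ifi211 on the same strand, and exons of other genes cover 4.27% of the exon bases of Mndal and 0.552% of those of Ifi203. The exons of the other 7 genes overlap no other annotated exon.

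On the GRCm38 build, the genes span chr1:173350879-174031810, which is 681 kb, from Aim2 at chr1:173350879-173466040 on the plus strand to Ifi205 at chr1:174011998-174031810 on the minus strand. Within the span lie Ifi206, Ifi214, Ifi208 and Ifi202b in addition to the 9 genes. Cadm3, a cell adhesion gene, lies across its left end, overlaps the span of Aim2 by 16.8 kb and was not called at -0.56 (SE 0.63, edgeR adjusted p = 0.628). Between these ends lie Ifi213 at chr1:173566283-173599274 (minus), Ifi209 at chr1:173630917-173647928 (plus) and Mndal at chr1:173849126-173942491 (minus). The opposite directions of Ifi207 (chr1:173723427-173741747) and Ifi204 (chr1:173747293-173766943) occur between neighbours on the minus strand that are 5.54 kb apart. Likewise Ifi211 (chr1:173896345-173913046), called higher, lies 7.36 kb from Ifi203 (chr1:173920407-173942672), which was not called. Outside the span, Olfr418 and Mptx2 on the left and Olfr432 and Olfr430 on the right had 0 counts in every library, Ackr1 had 39 counts in WGP replicate 2 alone, and Olfr433 had 0, 0 and 52 counts in PBS and 50, 26 and 28 counts in WGP, and neither was called.

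**Figure D3:**
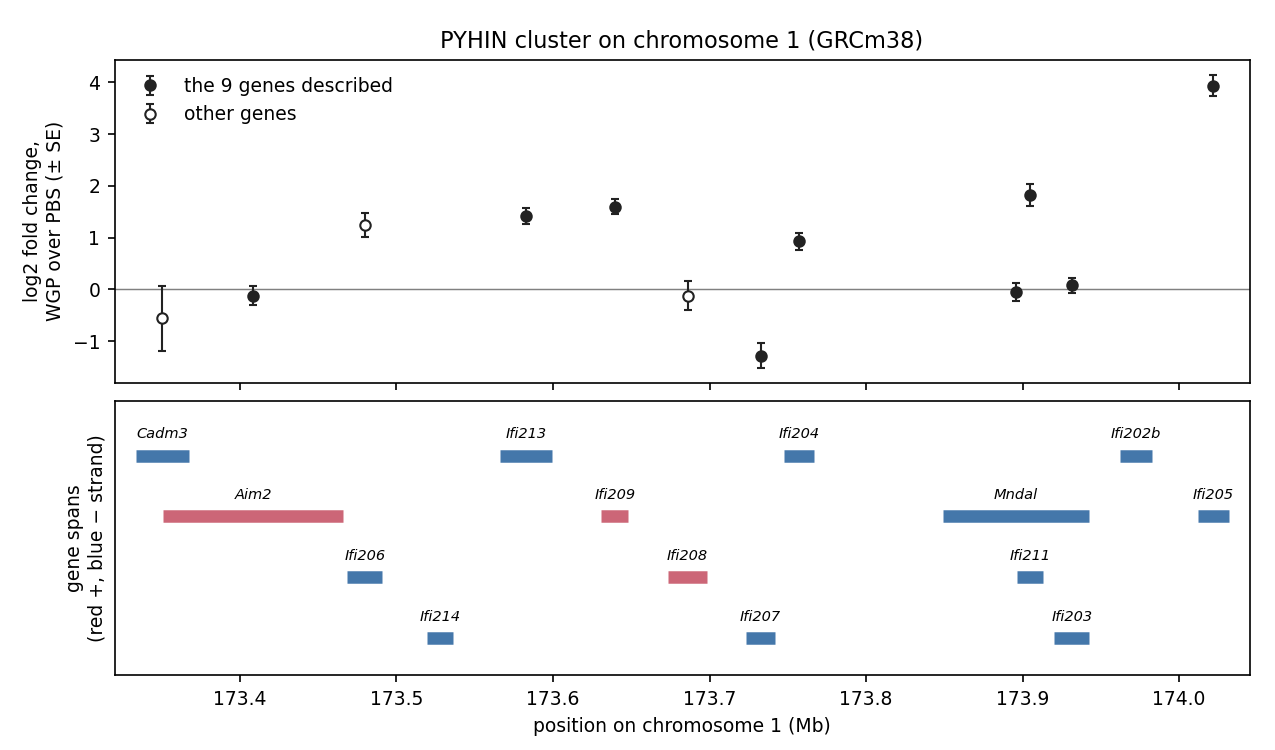
Top, log2 fold change of WGP over PBS with its SE for genes of the cluster, filled for the 9 genes described and open for others, against position on chromosome 1 (Mb, GRCm38). Bottom, gene spans coloured by strand; Ifi214 and Ifi202b, with few counts, have no point, and Ifi205 at 3.94 and Ifi207 at -1.28 mark the range.

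Of the other PYHIN and pyrin-only genes listed, Pyhin1, Pydc3 and Pydc4 were not found under those symbols. Whether they are counted under another symbol, among the genes described here or elsewhere, was not established. Ifi206 was called higher in WGP, with 24.6, 19.7 and 18.2 CPM in PBS and 47.5, 62.4 and 38.6 CPM in WGP. Its log2 fold change was 1.25 (SE 0.23; adjusted p = 0.00504, edgeR's quasi-likelihood test), with every WGP library above every PBS library. With the Y-linked covariate the call was lost, at 1.01 (SE 0.32) and an edgeR adjusted p of 0.0733, within a range of 0.000199 to 0.0733 over the alternatives. Ifi208 was at 24.1, 18 and 13.8 CPM in PBS and at 18.3, 14.5 and 18.7 CPM in WGP, with overlapping groups and an edgeR adjusted p of 0.854. Ifi214 had 0, 3 and 37 counts in PBS and 21, 135 and 38 counts in WGP, spread unevenly and not called at 2.26 (SE 2.13, edgeR adjusted p = 0.542). Ifi202b, which encodes a HIN protein without a pyrin domain that inhibits Aim2, had 13 counts in PBS replicate 2 and 0 in every other library. With 4 genes of this list tested, 1 was called higher and 0 lower, with a median log2 fold change of 0.57.

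The promoters of the family, taken from RefSeq as 250 bases before to 50 after a start, were searched on both strands for the core of the interferon-stimulated response element, the letters GAAA, NN and GAAA in a row (ISRE core), and for the gamma-activated sequence, TTCNNNGAA (GAS). The ISRE core occurs in 3.44% and the GAS in 8.3% of all 32851 mouse promoters in the table, and in at least 1 promoter of 3.99% and 9.55% of its 27025 genes. Of the 8 members with a promoter entry, the ISRE core was found for 6, Ifi205, Ifi207, Ifi211, Ifi213, Mndal and Ifi203, and not for Aim2 or Ifi209; Ifi204 has no entry. A GAS was found for 0 of the 8. Counted from the start, the first base of the match lies at -134 for Ifi205, -73 for Ifi213, -41 for Ifi207, -37 for Ifi211, -36 for Mndal, with -54 on the opposite strand in its other promoter entry, and -35 for Ifi203, in 1 of its promoter entries. Ifi205 has a second match, on the opposite strand and after the start. The same letters therefore occur at the called members Ifi205, Ifi211 and Ifi213, at Ifi207, which ran the other way, and at Mndal and Ifi203, which were not called.

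A 37-base window around the match is shown because it sets members that differ in direction beside each other. The windows lie on GRCm38.p6: Ifi205 at chr1:174031866-174031902 (minus strand), Ifi211 at chr1:173913060-173913096 (minus), Ifi207 at chr1:173741827-173741863 (minus), Mndal at chr1:173880200-173880236 (minus), Ifi213 at chr1:173599322-173599358 (minus), Ifi209 at chr1:173630767-173630803 (plus) and Ifi214 at chr1:173536013-173536049 (minus). Capitals mark the ISRE core, each sequence is written 5′ to 3′ on the strand of its gene, and the window of Ifi209, without a match, is in lower case.
Ifi205: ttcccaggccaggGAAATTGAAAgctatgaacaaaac
Ifi211: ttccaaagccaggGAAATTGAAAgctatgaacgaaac
Ifi207: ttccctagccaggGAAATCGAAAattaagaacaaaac
Mndal: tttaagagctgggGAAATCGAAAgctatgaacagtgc
Ifi213: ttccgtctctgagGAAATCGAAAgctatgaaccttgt
Ifi209: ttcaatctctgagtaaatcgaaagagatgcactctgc
Ifi214: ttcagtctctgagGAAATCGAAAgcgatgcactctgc

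Counted from 1 at the 5′ end of the window, Ifi205 differs from Ifi211 at 3 positions, A5C, A7G and G33A, none in the capitals. Ifi207 differs from Ifi211 at 7 positions, A5C, A6T, T19C, G24A, C25T, T28A and G33A, of which T19C lies in the NN of the motif. The windows of Mndal and Ifi203 are identical, as are those of Ifi213 and Ifi208, although Ifi213 was called higher and Ifi208 was not. The window of Ifi206 (chr1:173491335-173491371, minus) differs from that of Ifi213 at C4T. Ifi209 differs from Ifi214 at G5A, G14T and C25A, and G14T replaces the first base of the match. With that base left out and the first N set to T, the letters are AAATNGAAA, both choices made after the sequences were seen. They occur at 7 of the 8 members with an entry, Ifi209 included, at 2.14% of all genes in the table and in 1.87% of all promoters. A match describes the letters in the window and gives no evidence that a factor binds there.

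For the DNA-sensing genes, 5 of 19 tested were called higher and 2 lower, with a median log2 fold change of 0.28. Of all genes tested, 4.53% were called higher and 4.96% lower, with a median of -0.05. This list and those that follow were chosen with earlier results of these data known, so their counts are a description. Sting1, the adaptor downstream of p204 and cGAS, rose from 103 ± 13.3 to 264 ± 25.2 CPM (log2 fold change 1.35, SE 0.16, edgeR adjusted p = 0.000272), as did Zbp1, a sensor of left-handed nucleic acids (2.98, SE 0.21, edgeR adjusted p = 1.86e-05). Ikbke (3.15, SE 0.15, edgeR adjusted p = 3.69e-06) and Samhd1 (2.09, SE 0.15, edgeR adjusted p = 1.88e-05) also rose, and Nlrc3 (-2.19, SE 0.40, edgeR adjusted p = 0.00415) and Enpp1 (-1.53, SE 0.30, edgeR adjusted p = 0.00688) fell. The fifth gene called higher was Nlrx1 (1.14). Cgas was at 16.2, 12.9 and 14.9 CPM in PBS and 23.8, 31.1 and 21.5 CPM in WGP. It was not called at 0.79 (SE 0.25, edgeR adjusted p = 0.0637). Trex1 was listed at 0 in all libraries, and whether overlap with another gene kept its reads from being counted was not tested.

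Of 18 genes of inflammasome assembly and output, 6 were called higher and 0 lower. Pycard, which encodes ASC, the adaptor of Aim2, had a log2 fold change of 1.10 (SE 0.19, edgeR adjusted p = 0.00336), and was not called without PBS replicate 1 (0.99) or without WGP replicate 2 (0.93). Mefv (3.07, SE 0.22, edgeR adjusted p = 1.86e-05), Il1b (2.99, SE 0.22, edgeR adjusted p = 2.2e-05), Il1a (1.65, SE 0.24, edgeR adjusted p = 0.00121) and Gsdmd (1.41, SE 0.14, edgeR adjusted p = 0.000131) were called. Casp1 (0.70, SE 0.23, edgeR adjusted p = 0.072), Casp4 (0.36, SE 0.19, edgeR adjusted p = 0.271), Il18 (0.70, SE 0.24, edgeR adjusted p = 0.0843) and Nlrp3 (0.45, SE 0.20, edgeR adjusted p = 0.172) were not. Nlrp1b, at 0.82, was called without PBS replicate 2 (1.02).

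Of 16 genes of interferon receptors, kinases and transcription factors, 6 were called higher and 0 lower, with a median log2 fold change of 0.90. Irf1 (2.30, SE 0.24, edgeR adjusted p = 0.000153), Irf7 (1.96, SE 0.15, edgeR adjusted p = 2.74e-05) and Stat2 (1.29, SE 0.14, edgeR adjusted p = 0.000225) were called, and Irf9 (0.39, SE 0.16, edgeR adjusted p = 0.143) was not. Irf8 was not called at 0.96 (SE 0.18, edgeR adjusted p = 0.00521), and was called without PBS replicate 1 and without WGP replicate 1, at 1.06 in both, and Irf2, at 0.96, was called without PBS replicate 3 (1.01) and without WGP replicate 3 (1.03).

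Of 28 antiviral interferon-stimulated genes, 15 were called higher and 1 lower, with a median log2 fold change of 1.17. Mx2 was not analysed here and Ifi44l was listed at 0. Oas3 (2.11, SE 0.20, edgeR adjusted p = 7.59e-05), Ifit2 (2.09, SE 0.29, edgeR adjusted p = 0.000829) and Isg15 (2.05, SE 0.23, edgeR adjusted p = 0.000255) had the largest rises among the genes called and Oasl1 (-1.53, SE 0.20, edgeR adjusted p = 0.000688) fell. Some calls changed when 1 library was left out. Ifit1bl1 (1.82) lost it without PBS replicate 2 (1.65), WGP replicate 1 (1.68) or WGP replicate 3 (1.69). Oas1g (1.20) lost it when any of PBS replicate 2 (1.19), PBS replicate 3 (1.11) and WGP replicate 3 (0.90) was left out. Ifih1 (1.04) lost it without PBS replicate 1 (0.89) or WGP replicate 2 (0.97) and under library totals (0.95). Usp18 gained a call without WGP replicate 3 (1.32). Ifi44, with 49 counts in PBS replicate 3 and 0 in the other PBS libraries, was not called at 4.73 (edgeR adjusted p = 0.0631). It was called without PBS replicate 3, and with the replicate block at 7.09 (edgeR adjusted p = 0.0215, within a range of 0.000455 to 0.158 over the alternatives).

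All 22 interferon-gamma-linked genes were called higher, with a median of 3.18, among them Cxcl9 (6.31, SE 0.49, edgeR adjusted p = 2.65e-05). Of all genes tested 4.53% were called higher, and this list too was chosen with earlier results of these data known. Nos2 had 0 counts in PBS and 2207, 21768 and 3420 in WGP, most of them in WGP replicate 2. Low counts came in steps of up to 41 in the PBS libraries, and at a floor of 123 counts over the group, which is 3 such steps, Nos2 was at least 221-fold higher, and at least 69.6-fold higher without WGP replicate 2. That floor covers counting error only. Tgtp1 had 1 count in PBS and 4386 in WGP, and with a count below such a step no fold is given. With the Y-linked covariate, calls in the lists of sensors, inflammasome and interferon genes were lost for Ifit1bl1 (1.93), Oas1g (1.01), Cmpk2 (0.90) and Socs1 (3.47) and gained for Casp1 (1.30), Nlrp1b (1.16), Ninj1 (1.24), Ifnar2 (1.04), Ifitm3 (1.14) and Ifi44. Since that covariate sets PBS replicate 1 alone against WGP, these changes describe that library and are no test of the groups.

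Genes were named by Pearson's r of log2(CPM + 1), over the 6 libraries, with the mean of the centred members, as a description with no test. That mean was not weighted, so Ifi205, with the widest gap between the groups, moved it most, and it does not stand for each of the 9 genes. The genes nearest to the mean follow. They were Pgam1 (r = 0.9992), Clec4n (0.9991), Rab32 (0.9983), Adprh (0.9977) and M6pr (0.9976), over n = 6 libraries that share the difference between groups, and 583 genes had an r over 0.95. For Ifi205 alone, chosen after its values were seen, the nearest was also Pgam1 (0.9980), with 586 genes over 0.95. For Ifi207, chosen in the same way, the nearest included Man2b2 (0.9986), Fam118a (0.9956), Lpl (0.9953) and Ptp4a2 (0.9938), with 191 genes over 0.95.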

How the data were processed

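The authors aligned single-end reads to mm10 (GRCm38.p6) with STAR 2.6 and deposited raw counts for each Ensembl gene, made with HTSeq 0.10.0. The annotation release, strand setting and handling of duplicates are not given in the sources used here. Low counts come in steps: the most frequent low count in a library was between 18 and 41.

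Protein-coding genes (GENCODE vM21) with at least 10 RLE-normalized counts over the 6 libraries, 14429 genes, were tested in R 4.3.3 with edgeR 4.0.16 (quasi-likelihood, TMM, Benjamini-Hochberg over all of them). The fit was tested on simulated data. Levels use TMM scaling, those per kilobase the union of exons, and each SE was computed as the size of the log2 fold change divided by the root of F. DESeq2 1.42.0, other scalings, filters, a replicate block and each library left out were alternatives. The Y-linked covariate, the motif AAATNGAAA and the limit for Nos2 with a WGP library left out were added after the data were seen. So was the likeness to Ifi205 or Ifi207 alone. The members and lists were chosen with earlier results of these data known. The rule for named genes took all PYHIN genes listed, sensors, adaptors and factors (among them Cgas, Sting1, Zbp1, Trex1, Pycard, Casp1, Casp4, Gsdmd, Il1b, Il18, Nlrp3, Stat2, Irf9, Irf1, Irf7, Irf8), the 3 largest called rises and 2 largest called falls of each list, the 5 genes most like the members, the genes within the cluster with 3 on each side, and the most abundant marker of each marker list. Other genes, such as Nlrx1, Socs1 and those whose call changed with 1 library or the covariate, were named after their values were seen. Promoters are from RefSeq.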

Additional observations from a re-analysis of the deposited data

How the results depend on the processing

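The number of genes called was between 1343 and 1703 under other scalings, filters, tests and the Y-linked covariate, and 1146 to 1396 with a library left out, against 1369; with adjusted p alone it was 2071. Across 15 alternatives, 132 of 135 member values stayed within 1 SD of the replicates and 0 changed sign after a call. The 3 that moved did so with the Y-linked covariate: Ifi204 at 1.21, Ifi207 at -0.60 and Mndal at -0.35; the cause was not tested. The same covariate left 0 of the other PYHIN genes called, and adjusted p alone gave 12 of the interferon receptors and transcription factors. The log2 ratio of the summed PYHIN level was 0.34 per kilobase of unique windows and -0.02 to 0.20 with a library left out, against 0.10. Correlations of deviations were 0.076, -0.049 and 0.09 for same-numbered libraries and -0.11 to 0.042 for libraries with different numbers. All were small, and they do not settle whether the replicate numbers pair the libraries. With the replicate block 1341 genes were called, with the same members as without it and Ifi44 in addition among 17 antiviral genes (7.09). The lowest count of a member was 406, for Ifi205 in PBS replicate 3, where the most frequent low count was 27, while Ifi214 had at most 135 counts in a library and Ifi202b at most 13.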
